A study of Homo sapiens with 6 samples.

Results

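Short coding sequences (CDSs) of HEK293 cells were described by the ribosomes that sat on them. A CDS was taken as short where the deposited occupancy table gave a value for 100 or fewer codons, the stop codon included. This held for 219 of 9570 transcripts, 1 transcript per gene, and their CDSs ran from 25 to 100 codons with a median of 81. Of these genes, 171 were among the 8121 genes of the deposited table of translational efficiency. The remaining 9351 transcripts, with a CDS of over 100 codons, served for comparison, and 1164 of them had no more than 200.

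The data came from ribosome profiling of HEK293, a human embryonic kidney cell line, which the sample labels describe as treated with a control siRNA. There was 1 condition with 3 libraries of ribosome protected fragments (RPFs) and 3 libraries of total RNA, and no other genotype or treatment was compared. Cells had been held with cycloheximide, an inhibitor of elongation, for 3 min, and the lysis buffer contained it at 100 µg/ml. RPF and total RNA libraries with the same number came from the same lysate. Nothing in the labels says that the 3 replicates were separate cultures, so the p-values measure the spread between these samples, which may be technical.

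A ribosome that reads a short CDS starts, elongates and ends within a stretch of mRNA that only a few ribosomes can share. Many proteins of this size are subunits of large machines, such as the ribosome, the respiratory chain, the spliceosome and the protein translocation channels of mitochondria and the endoplasmic reticulum (ER). Others are free modifiers or binding proteins, such as ubiquitin-like proteins, metallothioneins and thymosins. A short CDS can also be one of several that a gene encodes, when its most abundant mRNA is a splice form with a truncated or alternative reading frame.

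Occupancy is the authors' value: RPF counts normalized for library size, divided by the abundance of the transcript in TPM, its share among all transcripts, for each codon and in the reading frame of the CDS. It combines the replicates and therefore has no replicate error. For 198 of the 219 transcripts the number of in-frame reads behind the values could be recovered, with a median of 1813 reads in the CDS and a range of 9 to 127526, and 183 of them had at least 100. Of these reads, 92.7% lay in values too high to be resolved into single reads and are estimates. The other 21 short CDSs have no read number. Read numbers give the counting depth only.

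In several short CDSs a single codon held between 33.4% and 60.4% of the occupancy, and the sequences around these codons are shown here because the positional results turn on them. Each line gives the reading frame 5′ to 3′ with up to 4 codons on each side, from the GRCh37 genome and GENCODE 44, and the capitals mark the codon with the highest occupancy.
MTRNR2L1, codon 14 of 25, chr17:22023427-22023429, plus strand: ttactttcaaccAGTgaaattgacctg
SH3BGRL3, codon 81 of 94, chr1:26607573-26607575, plus strand: ttcgtggaggctGTGgaacaaaacacg
HMGN4, codon 17 of 91, chr6:26545483-26545485, plus strand: gataaagcaaagGTGaaggatgagcca
C1orf122, codon 41 of 48, chr1:38274722-38274724, plus strand: ccaaaggatgctGGCgatggagctgcg
CYSTM1, codon 1 of 98, chr5:139574051-139574053, plus strand: ATGaaccaagagaac
COX14, codon 55 of 58, chr12:50513989-50513991, plus strand: cagaagacctcaGGAatcatgtag
SMIM20, codon 41 of 68, chr4:25929946-25929948, plus strand: aagaaggaacaaGCTataaatcgggct

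Genes with a short CDS had a higher translational efficiency than other genes. Their median ratio was 1.04, 1.07 and 1.1 in replicates 1 to 3, against 0.377, 0.375 and 0.381 for the other 7950 genes. The medians of the replicates lay close together within each group and did not overlap between groups, whereas the genes did. In replicate 1 the lower quartile of short CDSs was 0.384 and the upper quartile of other genes 0.801. The difference between the medians was 1.48 ± 0.03 on the log2(value + 0.01) scale (SD, n = 3), or 2.78-fold. An exact sign-flip permutation test over the 3 replicates, two-sided, gave p = 0.25, which is the smallest p that 3 replicates allow. Against genes with a CDS of over 100 and up to 200 codons only, the difference was 0.65 on the log2 scale.

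Tested gene by gene against the median of all genes, 120 of the 171 genes with a short CDS lay above it (70.2%), 35 below it (20.5%) and 16 did not pass the test (limma, Benjamini-Hochberg FDR of 0.05). Over all 8121 genes, 44.7% lay above and 44.6% below. The spread among short CDSs was wide, since their mean efficiencies ran from 0.0606 to 40.8. The SD between these genes was 2.08 on the log2 scale, against 1.53 between other genes and a median SD between replicates of 0.12.

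The median efficiency fell from bin to bin with CDS length above 50 codons. It was 1.5 for 48 genes with 51 to 75 codons, 1.09 for 120 genes with 76 to 100, 0.82 for 414 genes with over 100 and up to 150, 0.56 for 545 genes with over 150 and up to 200, and 0.284 for 707 genes with over 1000. Only 3 genes with 50 codons or fewer had a value, and their median was 0.182. Among the 171 genes with a short CDS themselves, efficiency and CDS length had a Spearman coefficient of 0.01 across genes, against -0.26 across all 6912 genes with both values. Genes are not independent replicates, and both values rest on the same libraries.

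**Figure D1:**
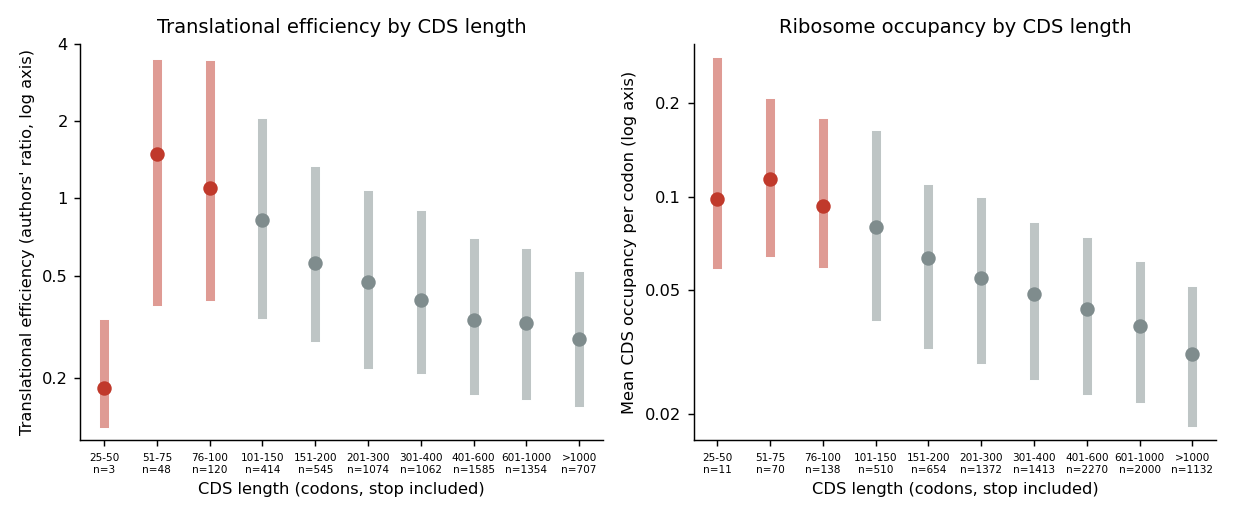
Translational efficiency (left) and mean CDS occupancy per codon (right) by CDS length, both on log axes. Points are medians and bars run from the lower to the upper quartile over genes, with CDSs of 100 codons or fewer in red. The median occupancy was 0.114 for 51 to 75 codons and 0.031 for over 1000 codons.

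No source used here gives the formula of the efficiency or a correction for length, and the part of length in the ratio itself was not tested. Short CDSs took up a median of 20.7% of the codons of their transcript, against 50.6% for longer ones. The medians are therefore also given by CDS share. Where the CDS took up over 20% and up to 40% of the transcript, the median was 1.03 for 59 short CDSs and 0.422 for 1782 longer ones. Where it took up 20% or less, it was 1.1 for 82 and 0.635 for 642.

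Ribosomal proteins, COX7B and NDUFA4 held the 5 highest values. The 9 short CDSs of the cytosolic ribosome had 7 genes in the efficiency table, all above the median, and a median efficiency of 6.46, against 1.62 for 61 longer ribosomal protein genes, of which 55 lay above. RPL37, a protein of the large subunit with 98 codons, had ratios of 38, 43.4 and 41.1, the highest of all short CDSs. RPS29 gave 30.2, 33.8 and 35.0 and RPS28 gave 28.9, 32.8 and 28.9, both proteins of the small subunit. RPL37A, with 93 codons, had ratios of only 0.736, 0.802 and 0.751, still above the median (log2 difference 0.97 ± 0.05 SE, adjusted p = 3.01e-05). These genes have processed copies in the genome: 100% of the CDS 30-mers of RPS28 and 78.9% of those of RPS29 occurred in transcripts of other genes, so their counts are uncertain. RPL37, COX7B and NDUFA4 were also outside the fit restricted to genes with under 5% shared CDS 30-mers. Their counts may be uncertain too. The occupancy of RPS28 was low, at 0.0423, and that of RPL37 was 0.301.

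The 3 short CDSs of mitochondrial ribosomal proteins differed from one another. MRPS21 had ratios of 2.84, 2.59 and 2.94 and lay above the median, MRPL34 had 0.383, 0.386 and 0.413 and did not pass the test, and MRPL33 had 0.105, 0.0791 and 0.0585 and lay below it (log2 difference -2.15 ± 0.15 SE, adjusted p = 7.22e-05). The 65 longer genes of this family had a median of 1.02.

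Short CDSs of subunits of the respiratory chain and the ATP synthase lay above the median in every measured case, and most longer ones did too. For complex I, which takes up electrons from NADH, this held for all 6 of 7 short CDSs with a value, with a median of 2.00 against 0.943 for 26 longer subunits. Of these longer subunits 19 lay above. NDUFA4 had ratios of 35.1, 36.5 and 36.5 and NDUFA1 had 14.8, 14.4 and 14.4. NDUFA4 is grouped here by its name, although it is now regarded as a subunit of complex IV. Of complexes III and IV and the ATP synthase, 9 of 14 short CDSs had a value and all 9 lay above, as did 22 of 24 longer subunits. The median of the short CDSs, 1.09, was below that of the longer subunits, at 1.51. COX7B, of cytochrome c oxidase, had ratios of 37.2, 35.9 and 36.3, while COX6B1 and COX6C of the same complex had means of 1.1 ± 0.011 and 0.788 ± 0.019 (SD, n = 3).

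Proteins that import, assemble or shape mitochondria had lower medians, 0.826 for import and 0.804 for assembly and cristae. Among the TIMM and TOMM proteins of the import machinery, 5 of 7 lay above the median, TOMM5 lay below it and TIMM9 did not pass the test. Of 12 longer import proteins 7 lay above, with a median of 1.05. TIMM13, a chaperone of the space between the membranes, had the highest ratios of the short import CDSs at 4.34, 4.58 and 3.89. Of 10 short CDSs of assembly and cristae proteins with a value, 6 lay above, 1 below and 3 did not pass the test. Of 20 longer ones 11 lay above, with a median of 0.554. MINOS1, a cristae protein with 79 codons, had ratios of 9.75, 10.4 and 13. Every short stretch of its CDS that was compared also occurred in transcripts of other genes, so its counts are uncertain. The copper chaperone COX17 had 0.364, 0.361 and 0.419, close to the median of all genes.

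**Figure D2:**
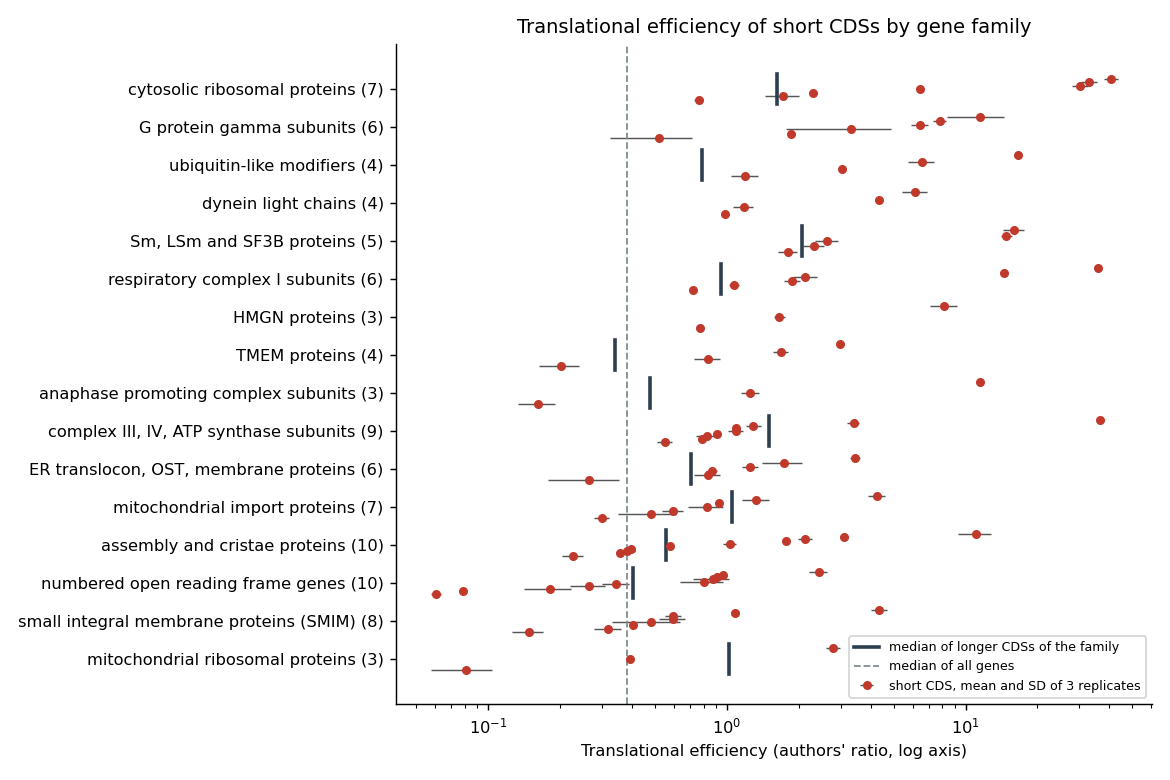
Translational efficiency of short CDSs in gene families with at least 3 values, on a log axis. Each red point is a gene with the mean and SD of 3 replicates, dark bars are medians of the longer CDSs of the family where there are at least 3, the dashed line is the median of all genes, and the number of short CDSs is in brackets. Ribosomal proteins reach 40.8 and MRPL33 lies at 0.0808.

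All 5 measured short CDSs of Sm, LSm and SF3B proteins, parts of the spliceosome and of mRNA decay complexes, lay above the median. So did 16 of 18 longer genes, with medians of 2.63 for short and 2.06 for longer CDSs. SNRPF had ratios of 14.7, 15.4 and 17.8 and SNRPE had 13.9, 15.2 and 15.4. All 4 measured ubiquitin-like modifiers lay above, and so did 8 of 9 longer genes of the list. The short ones had a median of 4.81, against 0.784 for the longer ones. SUMO4, with ratios of 7.28, 5.68 and 6.73, shares much of its sequence with SUMO2, and without it the median is that of UBL5, 3.05. SUMO2 had ratios of 15.9, 16.9 and 16.9, UBL5 had 3.08, 3.04 and 3.04, and UFM1 had 1.03, 1.20 and 1.34. In RNA polymerases, POLR2K had 11.9, 12.6 and 12.5 and POLR2L had 2.34, 2.88 and 2.44. GTF2H5, the smallest subunit of the general transcription factor TFIIH, had 14.1, 15.8 and 16.9.

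Small signalling and motor subunits mostly lay above the median as well. The gamma subunits of heterotrimeric G proteins, which anchor the beta subunit at the membrane, had 7 short CDSs and no longer ones. Of 6 with a value 5 lay above the median, and the median efficiency was 4.89. GNG5 had ratios of 7.31, 7.89 and 8.29, whereas GNG4, with 62 recovered CDS reads, had 0.715, 0.327 and 0.516 and did not pass the test. All 4 dynein light chains lay above, from DYNLRB1 with a mean of 0.979 to DYNLL2 with 6.15. Of the anaphase promoting complex, CDC26 had ratios of 11.2, 11.4 and 11.9 and ANAPC13 had 1.17, 1.21 and 1.38, while ANAPC11, its RING subunit, had 0.152, 0.141 and 0.195 and lay below the median. Every short stretch of the CDC26 CDS that was compared also occurred in transcripts of other genes, so its counts are uncertain.

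At the ER, 5 of 6 short CDSs of the translocon, the oligosaccharyltransferase and related membrane proteins lay above the median. Of 25 longer genes of this list 17 did. SEC61G, a subunit of the translocation channel, had ratios of 3.5, 3.57 and 3.25. DPM3 had 0.166, 0.308 and 0.324 and lay below. Small integral membrane proteins (SMIM), a naming class with few known functions, had a median of 0.539, with 4 of 8 above, 2 below and 2 not past the test. Genes still named as numbered open reading frames had a median of 0.573, with 5 of 10 above and 4 below. TMEM proteins had 3 of 4 above the median, against 32 of 86 longer ones. The 3 HMGN proteins, which bind nucleosomes, all lay above, as did both longer ones. Taking the 12 families with at least 3 measured genes on each side, the short CDSs had the higher median in 9. A ranking of efficiency within a family was not tested.

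The 5 lowest efficiencies belonged to C12orf75, MT2A, C17orf58, MRPL33 and SERF2. C12orf75 had ratios of 0.0572, 0.0614 and 0.0631 (log2 difference -2.48 ± 0.05 SE, adjusted p = 1.88e-06). MT2A, a metallothionein that binds zinc and copper, had 0.0717, 0.0908 and 0.0600 (-2.24 ± 0.11 SE, adjusted p = 2.02e-05). Its CDS was 95.2% identical to that of MT1G, and how far their reads can be told apart was not tested. SERF2 had 0.0814, 0.0732 and 0.0996, although its occupancy of 0.341 lay above the upper quartile of short CDSs, 0.192. The 2 tables therefore placed some genes differently, and MRPL33 and MT2A also had occupancies of 0.0883 and 0.150. Over the 171 genes, efficiency and occupancy had a Spearman coefficient of 0.61, with libraries and annotation in common.

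Short CDSs whose gene has no annotated CDS of over 100 codons differed in efficiency from those whose gene has one. Of 206 transcripts matched to GENCODE, 142 belonged to genes with no annotated CDS of over 100 codons, and 64 belonged to genes that have one. This split was chosen after the values had been seen. In the first group 96 of 113 genes with a value lay above the median (85.0%) and 11 below. In the second group 19 of 49 lay above (38.8%) and 21 below. The medians over replicates 1 to 3 were 1.45, 1.71 and 1.67 for the first group and 0.383, 0.366 and 0.390 for the second. They differed by 2.05 ± 0.15 on the log2 scale (SD, n = 3), in the same direction in every replicate (exact sign-flip permutation p = 0.25, the smallest possible). The second group was close to the median of all genes. The efficiency table gives 1 value per gene, and no source used here says whether its reads were counted over the short form alone.

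LARP6, an RNA-binding protein of collagen mRNAs with a listed CDS of 94 codons, had ratios of 0.117, 0.0788 and 0.0625. For this gene GENCODE also holds a CDS of 492 codons. NCK2, an adaptor of tyrosine kinase signalling with a longer CDS of 381 codons, had 0.187, 0.125 and 0.143. C17orf58, with a longer CDS of 340 codons, had 0.0784, 0.0798 and 0.0787. Some went the other way. CAMTA1, a transcription factor with a longer CDS of 1674 codons, had 0.794, 0.757 and 0.717 and lay above the median. TSLP, a cytokine whose listed short form has 64 codons, had 2.1, 1.48 and 2.93.

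The occupancy of short CDSs was higher than that of longer ones per codon. The median over the 219 was 0.10, with quartiles of 0.063 and 0.192, and the median over the 9351 longer CDSs was 0.044, a ratio of 2.26. CDSs of over 100 and up to 200 codons lay between at 0.069. The worth of a single read, which is inverse to library size and TPM, was 2.49 times lower at the median in transcripts with a short CDS. Occupancy is already divided by TPM, and whether any dependence on abundance remains was not tested. Since replicates are combined, no test across samples could be made.

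The highest occupancy was that of SUMO4, at 28.6, and the next was MT1G at 1.59. MINOS1 followed at 1.18, FAM127B at 1.12 and C7orf73 at 1.1. The CDS of MT1G was 91.4% and 95.2% identical to those of MT1X and MT2A, and MT1G had no recovered read number. Whether its reads came from their mRNAs was not tested. The lowest occupancies belonged to C17orf58 at 0.00424, TSTD3 at 0.00582, CALML4 at 0.00603, PKIG at 0.00703 and LARP6 at 0.00805. Few reads stood behind these low values, with 36 CDS reads for C17orf58, 14 for TSTD3, 27 for CALML4, 52 for PKIG and 62 for LARP6. All but PKIG, an inhibitor of protein kinase A, are genes for which GENCODE holds a longer CDS. Every short stretch of the CALML4 CDS that was compared also occurred in transcripts of other genes, so its counts are uncertain as well.

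The shortest CDSs were those of MTRNR2L1 and MTRNR2L8, nuclear copies of the mitochondrial humanin frame, with 25 values each. Most of their in-frame occupancy lay in the 5′UTR, and a single codon of MTRNR2L1 held 60.4% of its CDS occupancy. RPL41, the smallest ribosomal protein, had 26 codons, an occupancy of 0.0817 and 35761 recovered reads. OST4, of the oligosaccharyltransferase, had 38 codons and an occupancy of 0.0655. TMSB10, a thymosin that binds monomeric actin, had 45 codons and 0.0563, and TMSB4X, of the same length, had 0.203. None of these is in the efficiency table, which holds 3 of the 11 CDSs of 50 codons or fewer.

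Along the CDS, the start codon of short frames was like that of longer ones in its mean and higher in its median. Over 179 short CDSs of at least 40 codons with at least 100 reads, the start codon stood at 2.45 times the mean of its own CDS, against 2.47 over 8834 longer CDSs and 1.97 over 1012 CDSs of over 100 and up to 200 codons. The medians were 1.00, 0.32 and 0.40, so the mean rested on a minority of genes with a high first codon. A higher median was not particular to the start codon, since codon 2 had medians of 0.23, 0 and 0.09. With at least 100 reads, a median of 15.9%, 42.5% and 25.7% of the codons stood at 0. The part of reads per codon in these medians was not tested. The means of codons 2 to 10 were low in each group, at 0.64, 0.69 and 0.63.

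Occupancy then climbed just before the stop codon. The codon 4 before the stop stood at 1.85 in short CDSs, 1.37 in longer ones and 1.54 in those of over 100 and up to 200 codons. Over codons 2 to 4 before the stop the means were 1.59, 1.25 and 1.45. The stop codon itself was nearly empty, at 0.022, 0.008 and 0.013. In COX14, shown above, the highest codon lay 3 codons before the stop.

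**Figure D3:**
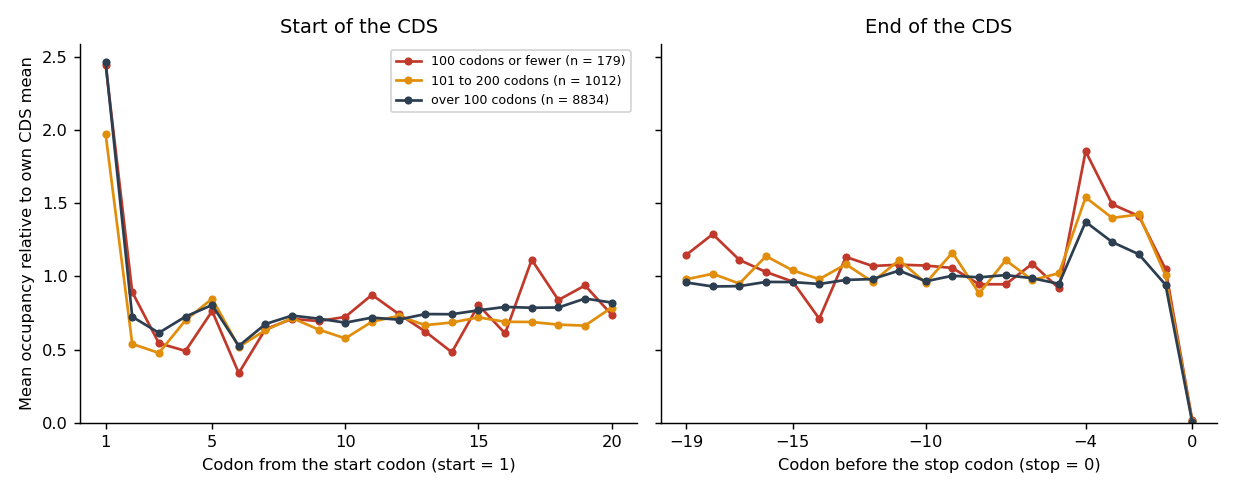
Mean occupancy relative to the mean of the own CDS, by codon from the start (left, start codon = 1) and before the stop (right, stop codon = 0), for CDSs of at least 40 codons with at least 100 recovered reads. Lines are CDSs of 100 codons or fewer, of over 100 and up to 200 codons, and of any length over 100 codons. All begin high, at 2.45, 1.97 and 2.47, and the 4th codon before the stop reaches 1.85 in short CDSs.

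The weight of most short CDSs lay in their latter part. The codons before the midpoint held a median of 41.6% of the occupancy. They held under 50% in 149 of 219 (68.0%), against 48.0% of longer CDSs and 58.5% of those of over 100 and up to 200 codons. In longer CDSs the same part held a median of 50.6%. Taken over their first 80 codons only, the first 40 held 45.8%, and CDSs of over 100 and up to 200 codons gave 47.3% over their whole length. The pro-apoptotic PMAIP1, with 55 codons, had 6.74% before the midpoint over 2607 reads. COX17 had 10.1%, MRPL33 11.8% and SMIM4 12.1%. ANAPC11 had the reverse shape, with 96.6% before the midpoint over 3004 reads. STRA13, a centromere protein, had 85.4%, and both genes encode a longer form as well.

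Single codons dominated some profiles. The highest codon held a median of 13.2% of the CDS occupancy, and over 20% in 43 short CDSs. The share depends on length, and within the first 80 codons of longer CDSs the median was 15.7%. In MTRNR2L1 the serine codon shown above held 60.4%. In SH3BGRL3, a small thioredoxin-like protein, codon 81 had an occupancy of 7.95 and none of the 8 codons shown around it exceeded 0.504. In HMGN4 codon 17 had 3.40 and none of its neighbours exceeded 0.127. The CDS of HMGN4 was 86.4% identical to that of HMGN2, and how far their reads can be told apart was not tested. C1orf122 had 42.2% on codon 41, CYSTM1 38.4% on its start codon and COX14 38.2% on codon 55.

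The start codon was the highest in 13 short CDSs (5.94%), against 2.34% of longer ones and 3.44% of those of over 100 and up to 200 codons. This share depends on the number of codons, with medians of 81, 457 and 156. Beside CYSTM1 these included SMCO4 with 34.2%, MRPL34 with 26.2% and HMGA1, a chromatin protein, with 26.2% of the CDS. Their starts are shown here because the whole peak falls on the start codon, in capitals.
SMCO4, codon 1 of 60, chr11:93212353-93212355, minus strand: ATGcggcagctcaaa
MRPL34, codon 1 of 93, chr19:17416702-17416704, plus strand: ATGgctgtcttggct
Over 174 short CDSs with at least 100 reads and a matched sequence, the highest codon encoded leucine in 21, glycine in 16, methionine in 16, valine in 15 and proline in 13. Leucine, the most frequent residue, made up 12.1% of these codons and 9.19% of all codons in the CDSs. In the same order, valine made up 8.62% and 6.09%, and proline 7.47% and 5.15%. Glycine made up 9.20% and 6.31%, and methionine 9.20% and 3.56%. The start codon was the highest in 11 short CDSs with at least 100 reads, so most of these methionines are start codons. Lysine made up 3.45% and 8.56%, and alanine 2.87% and 7.46%.

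**Figure D4:**
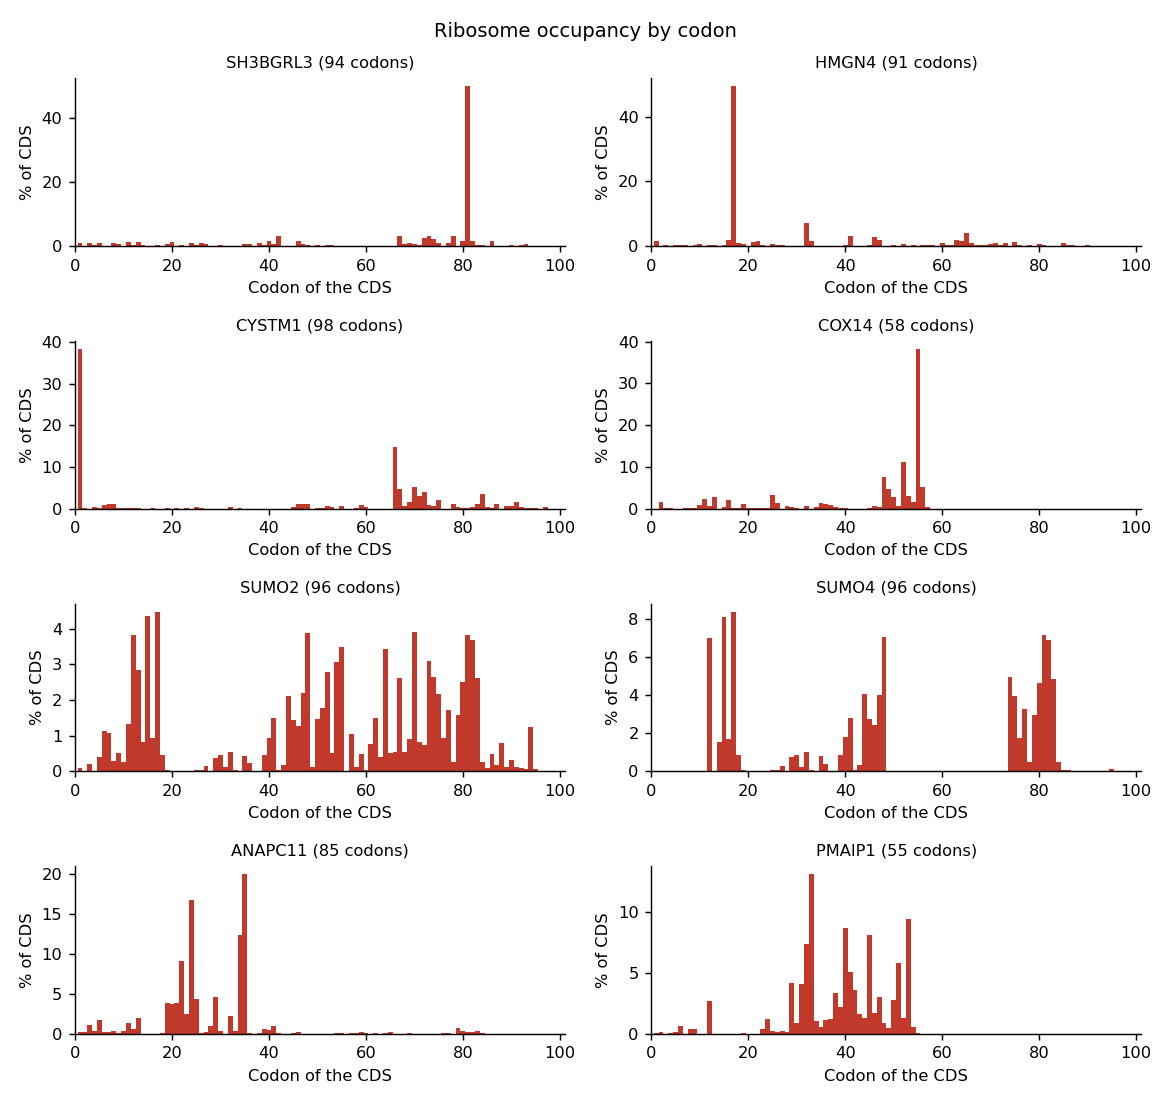
Share of the CDS occupancy in percent at each codon of 8 short CDSs, with the codon number on the horizontal axis and the replicates combined. SH3BGRL3 and HMGN4 hold 49.7% and 49.4% in a single codon, SUMO2 at most 4.49%, and SUMO4 has 42 codons at 0.

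Some short CDSs resembled one another in sequence, and these pairs were compared after their values had been seen. In 8 pairs of short CDSs with the same length at least 70% of the bases were the same. SUMO2, which conjugates to lysines of target proteins, and SUMO4 were 93.1% identical with 20 base differences, and their highest codon was codon 17 in both. The windows are shown with that codon in capitals and differ by 1 base.
SUMO2, chr17:73177254-73177256, minus strand: gagaacaacgatCATattaatttgaag
SUMO4, chr6:149721576-149721578, plus strand: gagaacaacaatCATattaatttgaag
SUMO2 had occupancy on 92 of 95 codons and SUMO4 on 53. Around 43 codons of SUMO4, the 28 bases that a footprint would cover held at most 1 difference from SUMO2. The 6 codons with none held 9.20% of its occupancy and the 37 codons with 1 held 61.6%. The 33 codons with 3 or more differences held 7.11%, and the same codons held 37.3% of the occupancy of SUMO2. The CDS occupancy of SUMO4 was 331 times that of SUMO2. Whether its reads came from SUMO2 mRNA was not tested beyond these values.

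HMGN2 and HMGN4 were 86.4% identical, and codon 17 was the highest in both. It held 7.37% in HMGN2 and 49.4% in HMGN4, over these windows.
HMGN2, chr1:26800007-26800009, plus strand: gataaagcaaagGTGaaggacgaacca
HMGN4, chr6:26545483-26545485, plus strand: gataaagcaaagGTGaaggatgagcca
HMGN2 had efficiencies of 7.49, 7.57 and 9.41 and HMGN4 had 0.764, 0.776 and 0.786. Whether reads of HMGN4 came from HMGN2 mRNA was not tested. The 3 metallothioneins were 91.4% to 95.2% identical, and their profiles had Spearman coefficients of 0.52 to 0.77 over codons. CKS1B and CKS2, which bind cyclin-dependent kinases, were 72.9% identical. They had occupancies of 0.129 and 0.132 and efficiencies of 6.13 and 8.14, with their highest codons at 37 and 23. DYNLL1 and DYNLL2 had a coefficient of 0.13.

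The 5′UTR held a median share of 1.30% of the in-frame occupancy of transcripts with a short CDS, against 0.354% for longer CDSs and 0.439% for those of over 100 and up to 200 codons. It exceeded 10% in 32 of 219 (14.6%), against 5.66% and 9.11%. The share depends on how much CDS there is. Over the last 17 codons before the start, in transcripts with more than 100 nt of 5′UTR, the median occupancy was 0.00705 for 134 short CDSs and 0.00186 for 6773 longer ones, a ratio of 3.78. Set against the occupancy of the own CDS, the direction was the other way for all longer CDSs, but not for the next longer ones. The 5′UTR stood per codon at a median of 0.0228 of the CDS for short and 0.0287 for longer CDSs, and at 0.0418 and 0.0465 with more than 100 nt of 5′UTR. For CDSs of over 100 and up to 200 codons the median was lower, at 0.014.

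MTRNR2L1 and MTRNR2L8 had 97.7% of their in-frame occupancy in the 5′UTR, with 59857 and 68750 recovered reads there. In MTRNR2L1 a single codon position, 182 codons before the start, held 56.2% of it, and in MTRNR2L8 the same position held 32.7%. Exact words of 28 bases from the large mitochondrial rRNA made up 9.74% of the 5′UTR words of the matched MTRNR2L1 transcript and 29.2% of its CDS words. NCK2 had 57.1% of its occupancy in the 5′UTR over 491 reads on 40 of 88 codon positions. C17orf58 had 71.6%, and in the matched transcript 315 nt before the start belong to an annotated CDS of another transcript of the gene. For C1orf122 the share was 49.7% and such a stretch covered 154 nt. CHCHD5, of the assembly and cristae proteins, had an occupancy per codon in the 5′UTR of 0.632 times that in the CDS, and 90.7% of it lay in the last 17 codons. In 9 of the 32 transcripts over 10%, annotated coding bases of another transcript lay before the start.

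**Figure D5:**
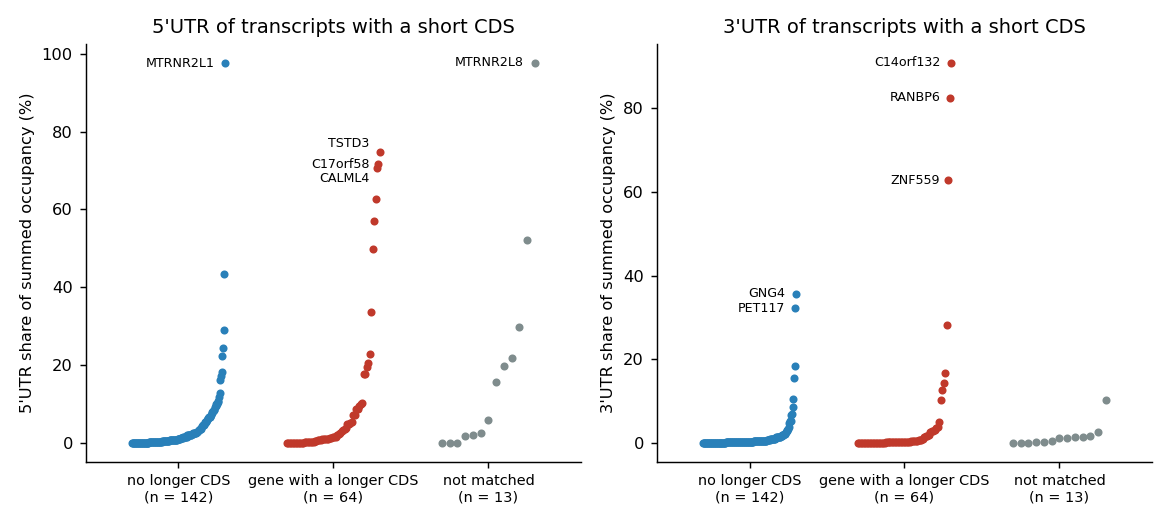
Share of the summed in-frame occupancy in the 5′UTR (left) and the 3′UTR (right), in percent, for 219 transcripts with a short CDS. Each point is a transcript, sorted within genes without an annotated CDS of over 100 codons, genes with one, and transcripts not matched. The 5 highest are named, and C14orf132 reaches 90.9% in the 3′UTR.

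In the 3′UTR the median share was 0.229%, against 0.015% for longer CDSs and 0.068% for those of over 100 and up to 200 codons. There was none in 34 of 219 (15.5%), against 43.5% and 25.9%. The share exceeded 10% in 14 (6.39%), against 1.12% and 2.75%. It, too, depends on how much CDS there is. RANBP6, an importin-related protein, had 82.5% in the 3′UTR, with 677 reads against 142 in its CDS of 69 codons. They lay on 224 of 1095 positions, from 6 to 798 codons after the stop, and GENCODE holds a CDS of 1106 codons for the gene, of which 788 nt lie after this stop in the matched transcript. ZNF559, a zinc finger protein, had 62.8% over 432 reads, with 1386 nt of annotated coding bases. MOCS2, which encodes both subunits of molybdopterin synthase in overlapping frames, had 16.6%, all within 223 codons of the stop. PET117, an assembly factor of cytochrome c oxidase, had 32.2% over 340 reads on 70 positions, with no other annotated CDS of the gene there, and all of its CDS 30-mers occurred in transcripts of other genes. C14orf132 had 90.9%, but 95.4% of that lay on 1 position, 1213 codons after the stop, and its CDS had 26 reads. KRBOX4 had 28.1%. In 6 of the 14 transcripts annotated coding bases of the same gene lay after the stop.

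Some features that the length rule did not use were close to those of the next longer CDSs. Transcripts had a median of 3 exons, against 9 for longer CDSs and 4 for those of over 100 and up to 200 codons. A purine stood 3 bases before the start codon in 92.2% of 205 short CDSs and in 85.8% of 8924 longer ones, with 88.9% for those of over 100 and up to 200 codons. In the same order, a G followed the start codon in 43.7%, 53.4% and 53.8%, so here short CDSs differed from both. TGA was the stop codon in 49.0%, 49.1% and 48.8%, and TAG in 25.2%, 21.0% and 19.5%. At least 50% of the CDS 30-mers occurred in transcripts of other genes for 45 of 206 short CDSs (21.8%), against 9.09% of longer ones and 20.5% of those of over 100 and up to 200 codons. Among these 45, 25 of 33 genes with a value lay above the median efficiency (75.8%), and among the 108 with under 5% shared 30-mers 59 of 87 did (67.8%). CDC26, MINOS1, CALML4, DYNLRB1, CKS1B and RPL41 had all of their CDS 30-mers shared, so their counts are uncertain too.

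At the limit of the rule, 7 transcripts had exactly 100 values, those of ACYP1, ACYP2, BLOC1S2, C19orf53, DYNLT1, HMGN3 and TMEM14A. Their occupancies ran from 0.0911 to 0.164 with a median of 0.106, and the 6 with an efficiency had means from 0.446 to 4.35. The 7 with 1 value more, just outside, were ATP5L2, C14orf142, C8orf59, EIF4EBP3, HMGN1, VAMP3 and VAMP8. Their occupancies ran from 0.0374 to 26 with a median of 0.070, and 6 efficiencies ran from 0.265 to 85.4, with ATP5L2 at the top of both.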

How the data were processed

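Ribosome profiling gave 3 RPF and 3 total RNA libraries of HEK293 cells. The authors trimmed reads with Cutadapt, removed PCR duplicates with cd-hit-dup, set rRNA and tRNA reads aside, mapped RPFs with bowtie against hg19 transcripts, and assigned those of 28 to 30 nt to a codon 13 nt into the read. For total RNA the methods name Hisat2, and reads were counted with HTseq-count and scaled to TPM, and the most abundant transcript of each gene was kept. The submitters' processing notes name cutadapt 1.16, Bowtie 1.1.2, TopHat2 2.1.1 and HTSeq 0.9.1. The study's own position plots used CDSs longer than those described here.

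Efficiencies were deposited as ratios on a linear scale, RPFs over total RNA in each replicate, and no source used here gives their formula. Occupancies were deposited in a unit of their own, RPF counts normalized by the authors for library size and TPM, per codon, with the replicates pooled. There was 1 table of each kind, and 31 CDS lists broken over lines were rejoined, none of them of a short CDS.

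Reads were recovered by searching the low values of each transcript for the 3 amounts that a read is worth, up to 60 times the smallest and with a relative tolerance of 1e-08. On 198 simulated short transcripts 190 were solved, 98.9% of them within 5%. The test of efficiency used limma 3.58.1 (R 4.3.3) and log2(value + 0.01) against the median of all values, over 8121 genes, with no filter. Simulating this comparison over 8121 genes, with a log2 shift of 1 in 200, called 86% of the shifted and 14 other genes. RPF and total RNA of 1 number share a lysate, so the pairing is inside each ratio. Transcripts were matched to GENCODE 44 on GRCh37 by symbol and CDS length, which gave 9180 of 9570 and 206 of 219. The UTR lengths of the matched transcripts can differ from those of the table. Medians over short CDSs were compared by an exact sign-flip permutation test over replicates. Python 3.11.15, numpy 2.4.6, pandas 2.3.3, scipy 1.17.1 and biopython 1.88 were used.

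The CDSs, the families and the tests were chosen with earlier results of these data known. Named genes are the 5 highest and the 5 lowest in efficiency and occupancy, the 5 shortest, the 5 with the largest share in a codon, in the 5′UTR relative to the CDS or in the 3′UTR, each with at least 100 recovered reads, those at the limit of 100 codons, and members of families. Genes outside this rule, such as CYSTM1, COX14, STRA13, HMGA1, CAMTA1, TSLP, PMAIP1, SMCO4, CKS1B, CKS2 and MOCS2, were picked after their values were seen. Alternatives were another pseudocount, leaving out a replicate, own medians per replicate, and filters on reads, shared sequence and length.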

Additional observations from a re-analysis of the deposited data

How the results depend on the processing

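Of 112 alternative values, 104 kept their direction and side of the threshold, or moved by no more than 10% where there was no test, and 0 reversed. Of the 112, 70 belonged to the 10 genes with the highest and lowest efficiency, and all 70 stayed. Those genes were picked for their extreme values, so a changed call was unlikely. Of the other 42 values 34 stayed, and the difference of 0.65 given below counted among them. The replicate block, with the median of each replicate removed, gave 120 short CDSs above and 35 below the median, and it changed no call of the 10 genes with the highest and lowest efficiency. Leaving out a replicate gave 121 to 122 above and 34 to 35 below, and a difference between medians of 1.46 to 1.49 on the log2 scale. A fit over only the genes with under 5% shared CDS 30-mers, which also takes its median from them, called 62 above and 18 below of 87, where the fit over all genes called 59 and 21 of the same genes. Only 51 short CDSs of 75 codons or fewer were tested, with 35 above and 9 below. The difference between medians ranged from 0.65 against CDSs of over 100 and up to 200 codons to 2.06. The latter was for genes without an annotated CDS of over 100 codons, chosen after seeing the data. Means in place of medians raised the occupancy ratio from 2.26 to 3.8, and the start codon had a median of 0.98 in place of a mean of 2.35. The last 10 codons of the 5′UTR in place of 17 gave a ratio of 6.30, and at least 100 recovered reads raised the median share in the 3′UTR to 0.309%, where the cause was not tested. Filters on reads leave out the 21 short CDSs without a read number. Occupancy has no replicate error, and the depth of total RNA is unknown.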
